A study of Mus musculus with 4 samples.

Results

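The 44 genes described here encode the machinery that shortens poly(A) tails, removes the cap and degrades mRNA from either end, together with factors of nonsense-mediated decay. They were chosen by gene symbol, for a set drawn up with earlier results of these data known. Of the 44 symbols, 41 were found on the array, out of 19718 genes with a probe of 1 symbol, and 39 entered the test, out of 18474 genes tested. No probe carried the symbol Cnot6, Exosc9 or Smg1, and the probes of Exosc2 and Upf3b had a value of 0 on at least 1 array and were left out. Each gene was represented by the probe with the highest mean intensity.

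MA-10 cells are a clonal line from a mouse tumor of Leydig cells, the cells of the testis that make testosterone. Cordycepin is an adenosine analog that lacks a hydroxyl group on its sugar. The cells received 100 μmol/L cordycepin for 3 hours (arrays H003 and H004) or vehicle for the same time (control, arrays H001 and H002), and total RNA was hybridized to 1-colour Mouse OneArray chips. The vehicle is DMSO in the methods of the study and PBS in the sample labels, and a field of the labels gives the drug in mg/mL instead. Whether the duplicates were separate cultures is not stated. The p-values of the main test therefore measure only the spread of these 4 arrays, taken over all probes together and possibly technical. So few arrays limit the precision.

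Most mRNAs in animal cells are degraded after their poly(A) tail has been shortened, first by PAN2-PAN3 and then by the CCR4-NOT complex. The cap is then removed by DCP2 with the help of activators, and XRN1 digests the body of the message from its exposed end, while the RNA exosome degrades from the other end. Nonsense-mediated decay sends messages with a premature stop codon into these routes through UPF and SMG proteins. As background, cordycepin can be added to a growing RNA chain and blocks its further extension, which has made it a tool for the study of polyadenylation.

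The values are the deposited normalized intensities. Ratios are given on the log2 scale as cordycepin over control, from limma, with p-values adjusted over the 24319 probes tested, and a gene was called at an adjusted p under 0.05. A single standard error of 0.407 applied to all probes, so that the adjusted p follows the log2 ratio alone and does not measure the spread of each gene. The smallest size called was 1.10. The median gap was 0.03 between the cordycepin arrays and 0.50 between the control arrays on the log2 scale, with H001 above H002. In the raw intensities it was 0.14 for H001 minus H002 and -0.26 for H003 minus H004. The median log2 ratio of all genes was -0.13, and 64.9% of genes had a ratio below 0. Array intensity is relative to the RNA loaded, so less RNA per cell and fewer cells that express a gene cannot be told apart. The labels describe oligo-dT priming, which starts at the poly(A) tail, and tail length was not measured.

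Of the 8 Leydig cell markers on the array, Hsd3b1, Nr5a1, Scarb1, Star, Gata4 and Cyp17a1 were detected on all 4 arrays (detection p under 0.05), whereas the probe of Cyp11a1 read 0 on every array. Nr5a1 and Gata4 were lower, with log2 ratios of -1.13 and -1.61. The summed intensity of the list was 18188 and 16741 in cordycepin-treated cells and 27611 and 19760 in control cells. Of the lists for other cells of the testis, 7 of 9 germ cell markers, 4 of 5 muscle markers, 4 of 7 Sertoli cell markers, 3 of 7 macrophage markers and 3 of 5 endothelial markers were not detected on any array, among them Dazl, Acta2, Amh, Emr1 and Tek. Detected on all 4 arrays were Ddx4, Acrv1, Des, Gata1, Rhox5, Cd68, Cd14, Pecam1 and Cdh5. Cdh5 read 398 and 325 in cordycepin-treated cells and 615 and 430 in control cells, and Gata1 242 and 209 against 322 and 176. For comparison, Star of the Leydig list read 197 and 196 in cordycepin-treated cells and 511 and 339 in control cells. Cd14 of the macrophage list was lower, and so was Sox9 of the Sertoli list, which was not detected on either cordycepin array. The summed intensity was 64.4 to 450.0 in cordycepin-treated cells and 49.7 to 694 in control cells for the germ, muscle, macrophage and endothelial lists. That of the Sertoli list was 22232 and 19470.0 in cordycepin-treated cells and 23148 and 17571 in control cells, nearly all of it from Rhox5. The part of these markers in the results was not tested.

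After 3 hours of cordycepin, 10 of the 39 tested decay genes were lower than in control cells and 0 were higher. Over all genes tested, detected or not, 14.7% were lower and 0.942% were higher by the same rule. The 10 were the decapping activators Dcp1a, Edc3, Pnrc2 and Patl1, the CCR4-NOT genes Cnot2, Cnot3 and Cnot4, the deadenylase adaptor Pan3, and Upf2 and Smg6 of nonsense-mediated decay. The median log2 ratio of the 39 was -0.55, and their values ran from -3.10 for Dcp1a to 0.36 for Upf3a. A refit on detected probes kept those detected on both arrays of either group, so a gene could enter through the group where it was higher. In it, 14 of 38 decay genes were lower, beside 28.7% of 11283 genes. The median log2 ratio in that refit was -0.55 for the decay genes and -0.31 for all genes. In 23 of the 39 both cordycepin arrays lay below both control arrays, a pattern that 35.5% of all genes showed. In 0 of the 39 both cordycepin arrays lay above both control arrays, against 8.63% of all genes. Both shares were taken over all genes tested, detected or not, and neither was taken over detected genes alone.

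**Figure D1:**
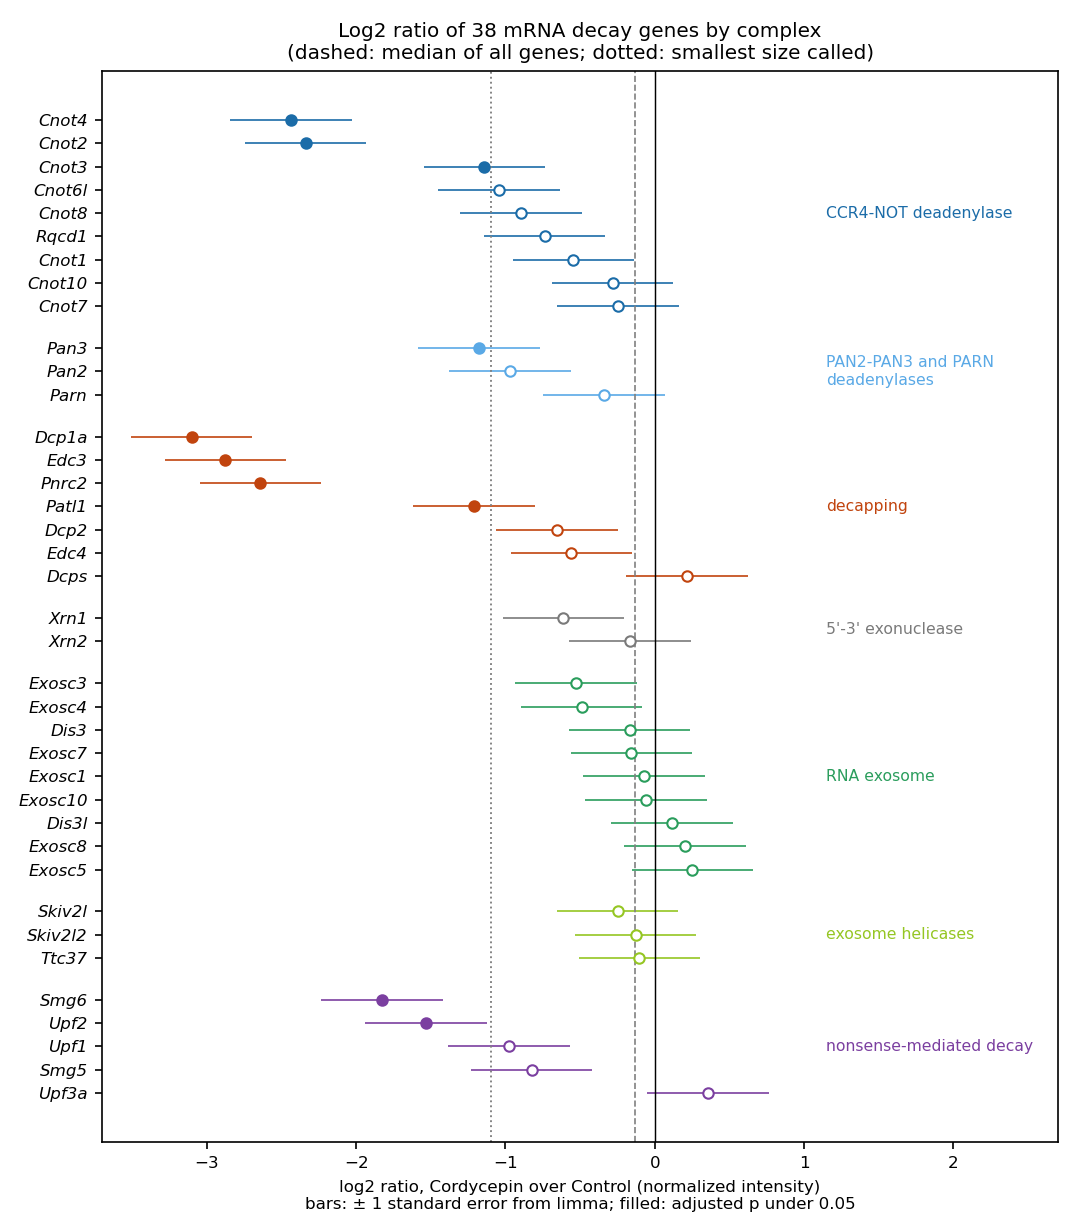
Log2 ratio of cordycepin over control for the 38 decay genes that were tested and detected, grouped by complex and sorted within it; bars are the standard error of 0.407 from limma and filled points passed an adjusted p under 0.05. The filled points lie in CCR4-NOT, PAN2-PAN3, decapping and nonsense-mediated decay, and all 12 points of the RNA exosome and its helicases are open and lie between -0.53 and 0.25.

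The test of these 10 genes depended on how the spread was estimated. Under each of 5 scalings, the deposited one and 4 others, all 10 were called lower. With the methods' t-test, which estimates the spread from the 4 arrays of each gene alone, 0 passed after adjustment and 8 of the 39 were lower at an unadjusted p under 0.05. Without array H003, 5 were lower (7.84% of all genes), and without array H004, 6 were lower (7.31% of all genes). Without array H002 the count was 22, with 29.8% of all genes lower.

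The decapping genes held the lowest ratio, and 4 of the 8 tested were lower, beside 14.7% of all genes. The same 4 were lower in the refit on detected probes, beside 28.7% of genes there, and Edc3 entered it through the control arrays alone. Dcp1a, an activator that binds the decapping enzyme, read 35.6 and 43.6 in cordycepin-treated cells, against 409 and 280 in control cells. Its mean was 39.6 ± 5.71 in cordycepin-treated cells and 344 ± 91.2 in control cells (SD, n = 2 each), with no overlap. Its level was 8.58-fold lower (log2 ratio -3.10, adjusted p = 1.8e-12 from limma). The cordycepin values lay not far above the lowest detected intensities of those arrays, 24.4 on H003 and 20.9 on H004. Edc3, an enhancer of decapping that also scaffolds processing bodies, read 83.3 and 69.1 in cordycepin-treated cells, against 652 and 475 in control cells. The groups lay far apart for both genes, although Edc3 was detected on only 1 of the 2 cordycepin arrays, with a detection p of 0.157 on H004. Its log2 ratio was -2.88 (adjusted p = 8.3e-11).

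Pnrc2, which links UPF1 to the decapping complex, read 2006 and 1447 in cordycepin-treated cells, against 11852 and 9526 in control cells, and was 6.24-fold lower (adjusted p = 3.3e-09). Patl1, a scaffold that joins deadenylated mRNA to the decapping factors, read 1056 and 840.0 in cordycepin-treated cells, against 2518 and 1887 in control cells (log2 ratio -1.21, adjusted p = 0.023). The Patl1 call, unlike those of Dcp1a, Edc3 and Pnrc2, was lost without array H003 (adjusted p = 0.22) and without array H004 (0.53).

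Dcp2, the decapping enzyme itself, did not pass the test, with 401 and 361 in cordycepin-treated cells and 752 and 477 in control cells (log2 ratio -0.65, adjusted p = 0.41). Edc4, a large scaffold of the same complex, had a log2 ratio of -0.56. Its intensities were 836 and 814 in cordycepin-treated cells and 1482 and 994 in control cells. The Edc4 spot on 1 array carried a flag whose meaning is not stated. Dcps, the scavenger enzyme that breaks down the cap left after degradation by the exosome, read 1278 and 1064 in cordycepin-treated cells and 1354 and 743 in control cells, so that the groups overlapped. Dcp1b, the paralog of Dcp1a, was not detected on any array and is given no fold. The log2 ratio was -2.32 for Edc3 minus Edc4, -2.45 for Dcp1a minus Dcp2 and -0.87 for Dcp2 minus Dcps. The first pair of these differences was picked after the values were seen, and none was tested.

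The promoters of 4 decapping genes are shown because 2 of the genes were lower and 2 were not called. They are RefSeq sequence of build GRCm38.p6, read on the strand of the gene and cut at the annotated 5′ end of the gene: Edc3 at chr9:57708319-57708539 (plus strand), Pnrc2 at chr4:135873847-135874096 (minus strand), Edc4 at chr8:105880631-105880872 (plus strand) and Dcps at chr9:35175988-35176237 (minus strand). Capitals mark matches on either strand to 6 motifs, the GC box GGGCGG, the CCAAT box CCAAT, the TATA box TATAAA, the E box CACGTG, the ETS site CCGGAAG and the cyclic AMP response element TGACGTCA.
Edc3: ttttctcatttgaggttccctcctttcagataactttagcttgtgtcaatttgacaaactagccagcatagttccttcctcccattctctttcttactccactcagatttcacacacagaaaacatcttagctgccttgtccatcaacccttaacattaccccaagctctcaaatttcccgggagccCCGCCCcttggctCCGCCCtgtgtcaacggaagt
Pnrc2: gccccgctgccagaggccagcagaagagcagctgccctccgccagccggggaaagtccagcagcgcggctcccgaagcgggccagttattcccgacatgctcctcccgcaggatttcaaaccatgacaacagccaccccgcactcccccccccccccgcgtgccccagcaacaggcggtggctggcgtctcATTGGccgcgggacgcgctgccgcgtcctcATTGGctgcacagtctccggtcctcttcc
Edc4: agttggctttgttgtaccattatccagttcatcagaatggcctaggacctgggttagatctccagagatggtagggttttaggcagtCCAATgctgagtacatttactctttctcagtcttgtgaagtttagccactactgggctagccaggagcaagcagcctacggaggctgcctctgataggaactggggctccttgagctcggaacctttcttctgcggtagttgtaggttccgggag
Dcps: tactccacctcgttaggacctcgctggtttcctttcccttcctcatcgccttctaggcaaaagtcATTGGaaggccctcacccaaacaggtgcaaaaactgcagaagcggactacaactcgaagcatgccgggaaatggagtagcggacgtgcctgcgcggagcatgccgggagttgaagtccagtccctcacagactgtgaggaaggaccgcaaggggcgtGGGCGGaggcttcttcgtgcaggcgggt

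Edc3 held GC boxes and no CCAAT box, Pnrc2 and Edc4 held CCAAT boxes and no GC box, and Dcps held both kinds. Over the 250 bases before the start, 36 of the 41 genes on the array matched a RefSeq promoter. A GC box was found in 7 of the 10 lower genes and in 15 of the 24 genes not called, against 33.0% of all 27025 promoters and 48.1% of the promoters of genes on the array. A CCAAT box was found in 3 of the 10 lower genes and in 8 of the 24 not called, against 34.5% of all promoters and 35.7% of those of genes on the array. Of the 36 promoters, 0 held a TATA box (13% of all), 0 a cyclic AMP response element (1.60%), 2 an E box (6.04%) and 4 an ETS site (7.07%). Among the promoters of genes on the array the shares were 10%, 2.16%, 7.37% and 9.99% in the same order. The share of G and C was a median of 64.8% in the lower genes and 59.6% in the genes not called, against 52.0% in all promoters. All promoters include those of genes not on the array, and no such median was taken for genes on the array alone. A match is a run of letters, and no site was tested.

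In the CCR4-NOT complex, which removes most of the poly(A) tail, 3 of 9 tested genes were lower, beside 14.7% of all genes. Cnot6l and Cnot8 were also lower in the refit on detected probes, beside 28.7% of genes there. All 9 ratios were below 0, as were 64.9% of those of all genes, and the median log2 ratio was -0.89. Cnot4, a ubiquitin ligase that associates with the complex, read 246 and 222 in cordycepin-treated cells, against 1558 and 1025 in control cells. Its log2 ratio of -2.44 (adjusted p = 6.3e-08 from limma) was the lowest of the complex. Cnot2, of the structural NOT module, read 533 and 509 in cordycepin-treated cells, against 3137 and 2213 in control cells, a level 5.06-fold lower (adjusted p = 2.4e-07). Cnot3, its partner in that module, read 85.6 and 77.3 in cordycepin-treated cells, against 221 and 146 in control cells. Its log2 ratio of -1.14 passed narrowly (adjusted p = 0.037), and the call was lost without array H003 (0.36) and without array H004 (0.50).

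The catalytic subunits of CCR4-NOT did not pass the test. Cnot6l, one of the 2 CCR4-type nucleases, read 180.0 and 169 in cordycepin-treated cells and 440 and 294 in control cells (log2 ratio -1.04, adjusted p = 0.069). It was the gene closest to the threshold among those not called, and it passed in 9 of 15 alternative settings. A second Cnot6l probe had a log2 ratio of -1.15 and did pass (adjusted p = 0.035). Of the CAF1-type nucleases, Cnot8 read 236 and 277 in cordycepin-treated cells and 579 and 390 in control cells (log2 ratio -0.89), and Cnot7 read 1259 and 1145 in cordycepin-treated cells and 1735 and 1167 in control cells (log2 ratio -0.25). The cordycepin arrays thus lay below the control arrays for Cnot8, while for Cnot7 the groups overlapped. The log2 ratio of Cnot7 exceeded that of Cnot8 by 0.65, a difference that was not tested.

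Cnot1, the scaffold on which the complex is built, read 3999 and 4036 in cordycepin-treated cells and 6731 and 5108 in control cells (log2 ratio -0.55, adjusted p = 0.59). Rqcd1, now named Cnot9, which binds adaptor proteins, had a log2 ratio of -0.74, and Cnot10, an accessory subunit, had one of -0.28.

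Of the deadenylases outside CCR4-NOT, Pan3, the adaptor that brings the PAN2 nuclease to the poly(A)-binding protein, read 396 and 367 in cordycepin-treated cells, against 1047 and 708 in control cells. It was 2.26-fold lower (adjusted p = 0.030 from limma), a call lost without array H003 (0.34) and without array H004 (0.43). Pan2, the nuclease, read 167 and 153 in cordycepin-treated cells and 371 and 264 in control cells (log2 ratio -0.97, adjusted p = 0.099). It was lower in the refit on detected probes, beside 28.7% of genes there. The log2 ratios of Pan3 and Pan2 lay 0.21 apart. Parn, a poly(A) ribonuclease known for trimming small RNAs, had 2260.0 and 2154 in cordycepin-treated cells and 3280 and 2374 in control cells (log2 ratio -0.34).

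**Figure D2:**
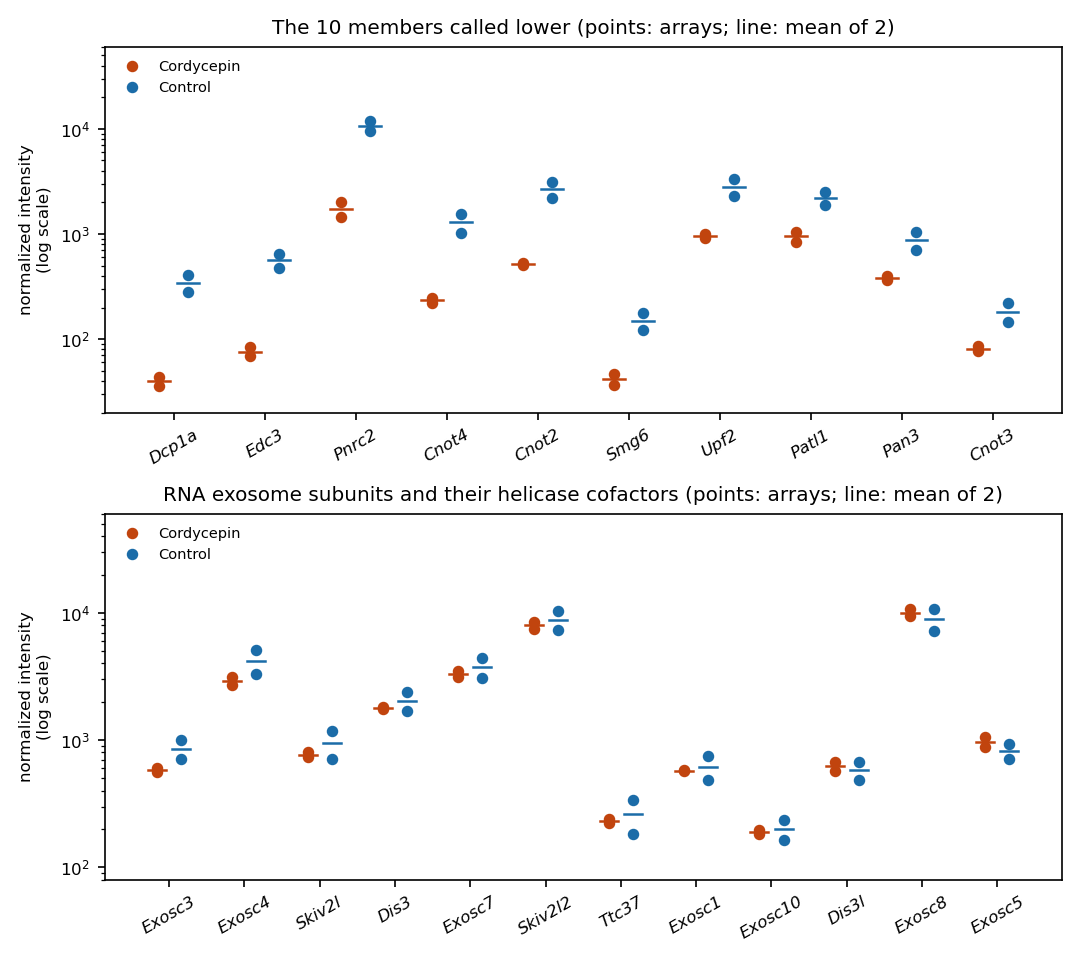
Normalized intensity on a log scale for each array, with cordycepin arrays to the left of control arrays and a line at the mean of each pair; the upper panel holds the 10 genes called lower and the lower panel the 12 genes of the RNA exosome and its helicases. In the upper panel, whose genes were chosen by their call, no cordycepin point reaches a control point, from Dcp1a (35.6 and 43.6 against 409 and 280) to Cnot3 (85.6 and 77.3 against 221 and 146). In the lower panel the groups overlap except for Exosc3 and Exosc4. Over all genes tested, detected or not, both cordycepin arrays lay below both control arrays in 35.5% and above both in 8.63%.

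The RNA exosome is a barrel of ring and cap subunits with nucleases bound to it. Of its 9 tested genes among the 44, 0 were lower and 0 were higher, beside 14.7% and 0.942% of all genes. The median log2 ratio was -0.07, beside -0.13 for all genes. The ring subunit Exosc6 is not among the 44 and was lower (log2 ratio -2.11, given below). Exosc3, a cap subunit, had the lowest value of the 9 (log2 ratio -0.53, adjusted p = 0.60 from limma). It read 561 and 603 in cordycepin-treated cells and 1000.5 and 704 in control cells. Exosc5, a ring subunit, had the highest and read 879 and 1047 in cordycepin-treated cells and 923 and 703 in control cells (log2 ratio 0.25). Of the other ring and cap genes, Exosc8 had a log2 ratio of 0.20, Exosc1 one of -0.07 and Exosc7 one of -0.16. The probe of Exosc2 read 0 on 3 arrays and was at most 1.11 on the other.

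Exosc4, another ring subunit, had 2 detected probes that disagreed. The probe with the higher mean read 3137 and 2712 in cordycepin-treated cells and 5073 and 3309 in control cells (log2 ratio -0.49, adjusted p = 0.61). The second read 282 and 245 in cordycepin-treated cells, against 1088 and 799 in control cells (log2 ratio -1.82, adjusted p = 1.2e-04). With the mean over both probes Exosc4 was called lower (log2 ratio -1.16, adjusted p = 0.021), so its direction below 0 was shared by the probes and its call was not.

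The nucleases of the exosome lay close to 0. Dis3, the nuclear enzyme, read 1833 and 1755 in cordycepin-treated cells and 2387 and 1704 in control cells (log2 ratio -0.17). Dis3l, its cytoplasmic paralog, read 668 and 574 in cordycepin-treated cells and 677 and 483 in control cells (log2 ratio 0.11). Exosc10, the nuclear exonuclease also known as RRP6, read 194 and 182 in cordycepin-treated cells and 236 and 162 in control cells (log2 ratio -0.06). In all 3 the cordycepin and control arrays overlapped.

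Helicases feed RNA into the exosome, and none of the 3 tested genes of this kind passed, where 14.7% of all genes were lower. Skiv2l, the helicase of the cytoplasmic SKI complex, read 803 and 732 in cordycepin-treated cells and 1174 and 707 in control cells (log2 ratio -0.25). Skiv2l2, the nuclear helicase now named Mtrex, read 8480.0 and 7467 in cordycepin-treated cells and 10347 and 7306 in control cells (log2 ratio -0.13). Ttc37, the scaffold of the SKI complex, had a log2 ratio of -0.10. At the single standard error of 0.407, a change smaller than 1.10 in these genes was not detectable, and a p that misses the threshold does not show that their levels were equal.

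The 2 nucleases that degrade from the capped end also did not pass. Xrn1, which works in the cytoplasm after decapping, read 156 and 145 in cordycepin-treated cells and 271 and 194 in control cells (log2 ratio -0.61, adjusted p = 0.48 from limma). Xrn2, which works in the nucleus and in transcription termination, read 660.0 and 706 in cordycepin-treated cells and 909 and 645 in control cells (log2 ratio -0.16). The groups lay apart for Xrn1 and overlapped for Xrn2, and the log2 ratios were 0.45 apart, which was not tested.

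In nonsense-mediated decay, 2 of 5 tested genes were lower, beside 14.7% of all genes. Upf1 was also lower in the refit on detected probes, beside 28.7% of genes there. Smg6, the endonuclease that cuts the targeted message, read 36.7 and 46.4 in cordycepin-treated cells, against 176 and 122 in control cells, a level 3.55-fold lower (adjusted p = 1.1e-04 from limma). Its cordycepin values lay not far above the lowest detected intensities of those arrays, 24.4 on H003 and 20.9 on H004. Upf2, which bridges UPF1 and the UPF3 proteins, read 990.0 and 924 in cordycepin-treated cells, against 3361 and 2274 in control cells (log2 ratio -1.53, adjusted p = 0.0019). Without array H003 the call was lost for Smg6 (adjusted p = 0.081) and for Upf2 (0.11), and without array H004 for Upf2 (0.16).

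Upf1, the central helicase of the pathway, read 137 and 143 in cordycepin-treated cells and 326 and 232 in control cells (log2 ratio -0.98, adjusted p = 0.096), so the groups lay apart but the ratio did not pass. Smg5, an adaptor that recruits decay enzymes, had a log2 ratio of -0.82 and intensities of 156 and 106 in cordycepin-treated cells and 323 and 161 in control cells. Upf3a, one of the 2 UPF3 genes, read 194 and 128 in cordycepin-treated cells and 165 and 92.3 in control cells, with overlapping groups and the highest log2 ratio of all 39 genes, 0.36. The other UPF3 gene, Upf3b, had intensities of at most 2.66 on any array.

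**Figure D3:**
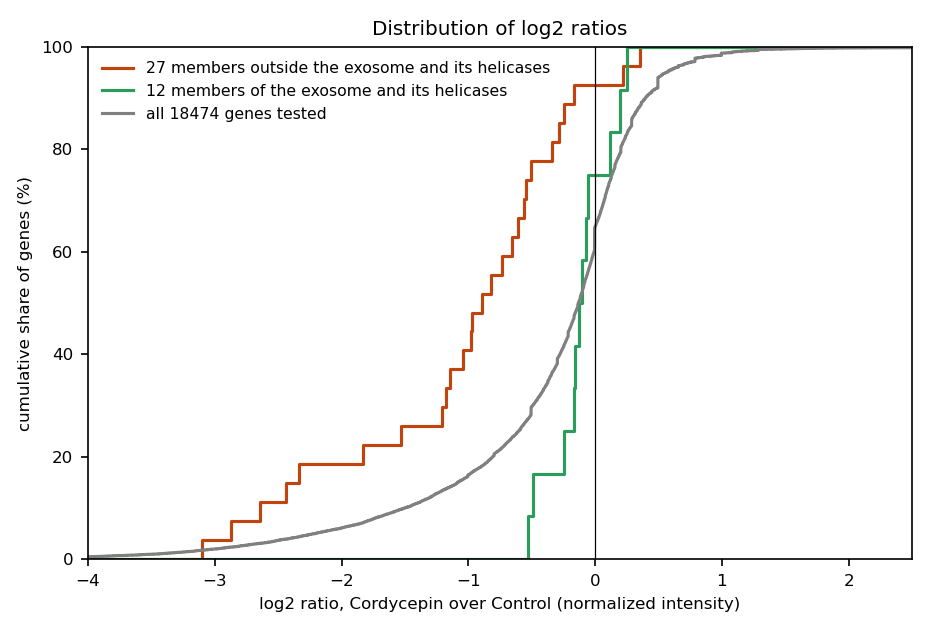
Cumulative share of genes by log2 ratio of cordycepin over control, for 27 decay genes outside the exosome and its helicases, 12 genes of the exosome and its helicases, and all 18474 genes tested. The curve of the 27 genes lies left of the curve of all genes from Dcp1a at -3.10 onward, with medians of -0.89 and -0.13. The 12 listed exosome genes span -0.53 to 0.25 and do not include the ring subunit Exosc6, at -2.11.

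Grouped by complex, the listed genes of the exosome and its helicases had 0 of 12 tested genes lower and a median log2 ratio of -0.12. That count leaves out the ring subunit Exosc6, which was lower (log2 ratio -2.11), and the second Exosc4 probe, also lower (-1.82). The remaining 27 of the 39 genes had 10 lower and a median of -0.89. Over all genes 14.7% were lower with a median of -0.13, and in the refit on detected probes 28.7% with a median of -0.31. This grouping was made after the values were seen, and the difference between its 2 sides was not tested.

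The direction of the genes near 0 depended on the scaling of the arrays. The median log2 ratio of all genes was -0.13 with the deposited normalization, 0.21 with each array set to a median of 0 and 0.125 with quantile-normalized raw intensities. The median of the decay genes was -0.55, -0.21 and -0.11 in the same order. That is 0.41, 0.41 and 0.23 below the median of all genes. For the refit on detected probes, the median of the decay genes minus that of all genes was -0.25. With centring, 14 decay genes were lower and 3 higher, where 19.8% of all genes were lower and 19.9% higher. With quantile normalization, 13 were lower and 6 higher, where 17.2% of all genes were lower and 22.3% higher. The higher genes were Dis3l, Exosc5 and Exosc8 with centring, and Dis3l, Exosc1, Exosc5, Exosc10, Ttc37 and Xrn2 with quantile normalization. Of the exosome genes among the 44, 0 were called in either direction under the deposited scaling and 3 were higher with centring. Under quantile normalization 4 of them were higher and 1, Exosc4 (log2 ratio -0.37, adjusted p = 0.037 from limma), was lower. Without array H002, Exosc3 and Exosc4 were lower. The 10 lower genes stayed lower under each scaling, but under quantile normalization the log2 ratio was -0.34 for Cnot3 and -0.54 for Pan3, against -1.14 and -1.18 with the deposited values.

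**Figure D4:**
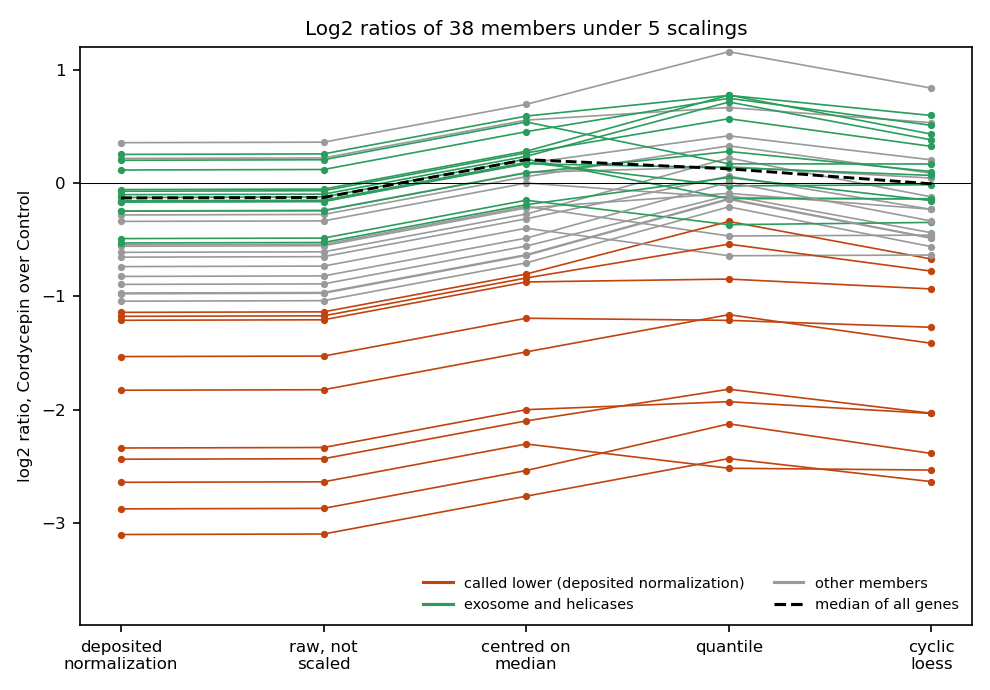
Log2 ratio of cordycepin over control for 38 decay genes under 5 scalings of the arrays, 1 line per gene, with the median of all genes dashed. The lines of the 10 genes called lower stay below 0 in every scaling, and those of the exosome and its helicases lie on both sides of 0 in every scaling.

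Genes of mRNA decay beyond the 44 were read from a list of 51 symbols, of which 41 were on the array and 40 were tested. Of these, 15 were lower and 0 higher, and 25 did not pass, beside the 14.7% and 0.942% of all genes. The median log2 ratio was -0.68. The refit on detected probes had 19 lower and 1 higher, beside 28.7% and 0.789% of genes there. Tnrc6c entered that refit through the control arrays alone, and Dis3l2 through the cordycepin arrays alone. Cofactors of the nuclear exosome were among the lower genes. Papd7, a noncanonical poly(A) polymerase, read 53.3 and 52.7 in cordycepin-treated cells, against 760 and 558 in control cells (log2 ratio -3.62, adjusted p = 9.4e-17 from limma). Its relative Papd5 had a log2 ratio of -1.79, the zinc knuckle protein Zcchc7 of the same complex one of -2.36, and Mphosph6, an exosome-associated protein, one of -2.04. Zcchc8 and Rbm7, which pair with the helicase MTREX in the NEXT complex, had log2 ratios of -1.77 and -1.30. Exosc6, the ring subunit that the 44 genes do not include, read 978 and 904 in cordycepin-treated cells, against 4820 and 3437 in control cells (log2 ratio -2.11, adjusted p = 4.3e-06).

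Of the 5 genes of other deadenylase families on the array, 3 were lower, beside 14.7% of all genes and 28.7% in the refit on detected probes. Ccrn4l, or nocturnin, had a log2 ratio of -2.35, Pde12, a mitochondrial enzyme, one of -2.49, and Toe1, a nuclear enzyme, one of -2.46. Angel2, a relative of the CCR4-type nucleases detected on all 4 arrays, did not pass, with a log2 ratio of -0.093, and Angel1 was not detected on any array. Pelo, which rescues stalled ribosomes, read 144 and 134 in cordycepin-treated cells, against 1450.4 and 953 in control cells (log2 ratio -3.08). Of the GW182 genes, whose proteins recruit deadenylases to microRNA targets, Tnrc6a and Tnrc6b were lower, with log2 ratios of -1.94 and -1.36. Tnrc6c, also called, was not detected on either cordycepin array (17.8 and 20.9, against 136 and 91.4 in control cells), and with each of those raised to the lowest detected intensity of its array it was at least 4.94-fold lower. Casc3, of the exon junction complex, had a log2 ratio of -2.39. The LSM genes of the ring that binds deadenylated mRNA did not pass, with log2 ratios from -0.20 for Lsm2 to 0.51 for Lsm4, nor did the helicase gene Ddx6 at -0.27. Dis3l2, a nuclease of the exosome nuclease family that acts apart from the exosome, had the highest log2 ratio of the list, 1.04, and did not pass (adjusted p = 0.070 from limma), with 72.2 and 82.7 in cordycepin-treated cells and 18.3 and 77.2 in control cells.

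**Figure D5:**
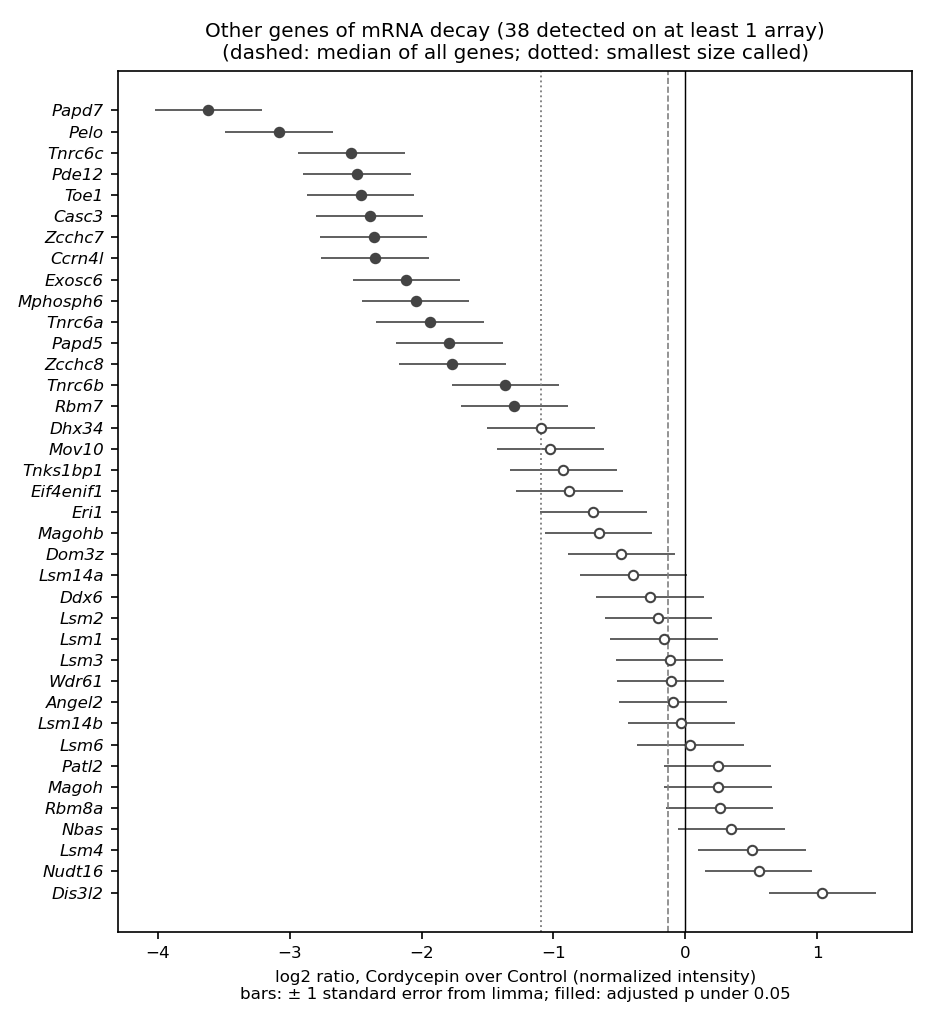
Log2 ratio of cordycepin over control for 38 other genes of mRNA decay that were detected on at least 1 array, with the standard error of 0.407 from limma as bars; filled points passed an adjusted p under 0.05. The 15 filled points run from -3.62 for Papd7 to -1.30 for Rbm7, and the points right of 0, up to Dis3l2 at 1.04, are open, while the point of Tnrc6c, not detected on either cordycepin array, is no measured ratio.

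Of the 41 genes on the array, 7 had more than 1 probe. Both detected probes of Cnot2 were called lower, with log2 ratios of -2.34 and -2.02, as were both detected probes of Cnot4, at -2.44 and -1.50. Another Cnot4 probe was not detected on any array. The 2 probes of Exosc1 had log2 ratios of -0.07 and -0.46, and neither was called. The second Dcp2 probe was not detected on either cordycepin array and was not called. Of the Cnot1 probes only 1 was detected.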

How the data were processed

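Each group had 2 one-colour arrays (cordycepin H003 and H004, control H001 and H002) of 26423 probes. The authors deposited raw intensity values, which are whole numbers after a background subtraction, and normalized intensity values, which equal the raw ones times a factor of 0.888 to 1.14 for each array. The scanner software and the method of normalization are not given in the sources used here. A detection p-value and a score that flags some spots, of unstated meaning, were also deposited for each probe. Their log2 ratio and p-value of the comparison were not used. The labelling protocol in the labels describes oligo-dT priming and a radioactive label, although Cy5 is named as the dye. Gene symbols are those of the deposited annotation.

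Log2 normalized intensities were compared in R 4.3.3 with limma 3.58.1 (lmFit, eBayes), Benjamini-Hochberg adjustment over 24319 probes above 0 on every array, and 2104 probes were left out. The fit was tested on simulated data. The genes given with values on each array were those called, those with the highest and lowest ratio of a complex, and pairs of related genes, and further genes were added after their values were seen. The members and the lists were chosen with earlier results of these data known, and 1 gene of the second list is not reported here. Detected means a detection p under 0.05, and the refit on detected probes kept those detected on both arrays of either group. The alternatives were other scalings, detection and floor filters, eBayes with trend, the methods' t-test, the study's thresholds, all probes of a gene, the series table and leaving out each array.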

Additional observations from a re-analysis of the deposited data

How the results depend on the processing

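The decay genes called lower numbered 10 with the deposited values and 10 with the series table, and 11 to 15 with the other scalings, the detected probes, eBayes with trend, the study's thresholds and the mean over a gene's probes, against 14.7% of all genes with the deposited values and 15.5% to 28.7% of all genes tested in those settings. All 10 remained in each. With intensities raised to a floor of 1 the count was 6 (8.06% of all genes), losing Cnot3, Pan3, Patl1 and Upf2, and with the methods' t-test it was 0 (8 at an unadjusted p under 0.05), where the 10 had adjusted p-values of 0.32 to 0.405 (Cnot3). Leaving out 1 array gave 5 (without H003) to 22 (without H002), with 7.31% to 29.8% of all genes lower. Genes called higher numbered 0 with the deposited values (0.942% of all genes), 3 with centring (19.9%), 6 with quantile normalization (22.3%) and 2 with cyclic loess (11.2%). The median log2 ratio of the decay genes was -0.21 with centring, -0.11 with quantile normalization and -0.23 with cyclic loess, and -0.80 to -0.32 when 1 array was left out. The other mRNA decay genes called lower numbered 15 with the deposited values and 0 with the methods' t-test, and those called higher 8 with centring, 9 with quantile normalization, 6 with cyclic loess, 1 with the detected probes, with eBayes with trend, with the study's thresholds and with the mean over probes, and 0 to 3 when 1 array was left out (3 without H001, where 7.56% of all genes were higher). The cause of these differences was not tested.

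Among the genes not called, the sign changed to a log2 ratio above 0 in 3 scalings. With centring the values were 0.056 for Cnot10, 0.092 for Cnot7, 0.17 for Dis3, 0.27 for Exosc1, 0.28 for Exosc10, 0.18 for Exosc7, 0.089 for Skiv2l, 0.21 for Skiv2l2, 0.24 for Ttc37 and 0.17 for Xrn2. With quantile normalization they were 0.33 for Cnot10, 0.14 for Cnot7, 0.061 for Dcp2, 0.14 for Dis3, 0.57 for Exosc1, 0.78 for Exosc10, 0.048 for Exosc3, 0.28 for Skiv2l, 0.0067 for Smg5, 0.71 for Ttc37, 0.22 for Xrn1 and 0.42 for Xrn2. With cyclic loess they were 0.086 for Cnot10, 0.044 for Cnot7, 0.067 for Dis3, 0.32 for Exosc1, 0.43 for Exosc10, 0.10 for Skiv2l, 0.38 for Ttc37 and 0.20 for Xrn2. When 1 array was left out, the log2 ratio ran from -0.53 to 0.040 for Cnot7, -0.22 to 0.65 for Dcps, -0.41 to 0.075 for Dis3, -0.13 to 0.36 for Dis3l, -0.39 to 0.25 for Exosc1, -0.33 to 0.21 for Exosc10, -0.41 to 0.094 for Exosc7, -0.088 to 0.49 for Exosc8, -0.62 to 0.12 for Skiv2l, -0.38 to 0.12 for Skiv2l2, -0.54 to 0.33 for Ttc37, -0.062 to 0.77 for Upf3a and -0.41 to 0.083 for Xrn2. The arrays carry no numbers that pair them across groups, and Exosc2 and Upf3b could not be fitted on the log2 scale except with the floor of 1.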
